A study of Homo sapiens with 16 samples.

Results

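The RNA that came down with the RNA-induced silencing complex (RISC) in the presence of the microRNA (miRNA) mir550-3p was compared with the RNA recovered with 5 other miRNAs in the same human cells. The set consists of the 2 libraries titled mir550-3p, of 16 libraries in the series. They were chosen by title, and their 2 count columns carry the name 550a with a first and a second biological number. The cells were HEK 293, a permanent line that goes back to human embryonic kidney. All libraries share the RISC-trap immunoprecipitation, extraction with Trizol, polyA RNA and a SOLiD kit for total RNA. The reference was the mean of the 5 group means of mir3613-5p, mir1180-3p, mir1301-3p, mir1260a-5p and mir1271-5p, with 2 libraries each and 10 in all. Each group differs from the others, as far as the labels go, only in its miRNA. The 4 libraries of mir124-3p were left out of the comparison. Neither a library of input RNA nor one without a miRNA is named in the labels. Recovery with RISC and the amount of a transcript in the cell therefore cannot be told apart, and a gene called higher was recovered more than with the other 5 miRNAs. The question was which mRNAs each selected miRNA holds as targets.

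A miRNA is a short RNA that guides an Argonaute protein to mRNAs, mostly by pairing of its seed, bases 2 to 8 from its 5′ end, with the mRNA. Argonaute binds GW182, the protein of TNRC6A and its relatives, which recruits the enzymes that shorten the poly(A) tail, and the mRNA is then decapped and degraded. In RISC-trap a dominant-negative GW182 blocks that last step, so that targets stay on the complex and can be precipitated with it.

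The mature sequences of the 6 miRNAs are shown because the seed is what sets their targets apart. They are taken from RefSeq (GRCh38.p14), written 5′ to 3′, and the capitals mark the seed.
hsa-miR-550a-3p: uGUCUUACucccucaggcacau
hsa-miR-1180-3p: uUUCCGGCucgcgugggugugu
hsa-miR-1260a: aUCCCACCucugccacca
hsa-miR-1271-5p: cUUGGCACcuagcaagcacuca
hsa-miR-1301-3p: uUGCAGCUgccugggagugacuuc
hsa-miR-3613-5p: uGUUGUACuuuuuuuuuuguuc
No 2 of the 6 seeds are the same. The RefSeq table places the mature hsa-miR-550a-3p at chr7:32733041-32733062 on the plus strand in MIR550A2 and at chr7:29680748-29680769 on the minus strand in MIR550A3, with the same letters at both places. Its seed GUCUUAC pairs with GUAAGAC in an mRNA. The label mir1260a-5p was matched to the entry named hsa-miR-1260a.

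Among the 2370 mature human names in that table, the seed of hsa-miR-550a-3p was held by 2, itself and hsa-miR-200c-5p. The related hsa-miR-550b-3p has another seed. These sequences are shown because one shares the seed and the other shows how a near relative differs in it.
hsa-miR-200c-5p: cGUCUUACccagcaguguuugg
hsa-miR-550b-3p: uCUUACUCccucaggcacug
Transcript sequences were not used here, so whether the genes described next hold the match GUAAGAC was not examined.

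The 2 mir550-3p libraries held 14491600 and 16089463 counts, within the 7612758 to 17972321 of the 12 libraries compared. Their counts differed from each other by far more than sampling noise (chi-square of 38.1 per degree of freedom over 17313 genes), so they are separate libraries. The titles call the second library of each miRNA a replicate. The columns of mir550-3p and 1 of mir1301-3p are named as biological replicates, and nothing says whether those of the other 4 miRNAs came from separate cultures. The p-values measure the spread between these samples, part of which may be technical. Across genes, the deviations of the 2 mir550-3p libraries from the mean of the 6 groups correlated with r = 0.42. Both correlated positively with mir1271-5p replicate 1 (r = 0.34 and 0.28) and negatively with the 4 pairings to mir1301-3p (r from -0.45 to -0.27). All 12 libraries share the deviation's common mean, so these values only describe which libraries resemble each other. Of the HEK 293 genes, NEFL, a neurofilament gene typical of this line, stood at 759 and 591 CPM and VIM at 1095 and 864 CPM in the mir550-3p libraries. CPM are counts scaled to a common library size, with TMM factors over the 12 libraries. The kidney factor PAX2 was low, at 3.00 and 2.86 CPM.

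With mir550-3p, 212 of 17658 genes tested were higher (1.20%) and 54 were lower (0.306%) than with the other 5 miRNAs, by edgeR's quasi-likelihood test at a Benjamini-Hochberg adjusted p under 0.05. Among called genes with a mean of at least 5 CPM and both mir550-3p libraries above the other 10, those with the largest increases included the mitochondrial dehydrogenase gene DLD, the chaperone genes DNAJA2 and CCT4, the mitochondrial ribosomal gene MRPL14, the chromatin gene SMARCD2 and the signalling inhibitor SPRY2. The leading decreases by the same rule included the defensin gene DEFB123, the homeobox gene TPRX1 and the endothelin gene EDN2. With mir550-3p these had means of 0.106, 0.753 and 0.726 CPM, so they met the 5 CPM filter only through the reference libraries. The ranking of decreases by size depends on that filter. Among the called genes the median log2 fold change was 1.41 for those higher and -2.77 for those lower, against -0.05 for all genes tested. Fitted increases reached above 4-fold in 27 of the 212 genes, and decreases above 4-fold in 40 of the 54.

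Separately from the test, both mir550-3p libraries lay above all 10 reference libraries in 728 genes (4.12%) and below all 10 in 521 genes (2.95%). Of the 266 called genes, 189 of the higher had both mir550-3p libraries above the 10 and 47 of the lower had both below, and the other 23 and 7 did not. The call rate differed with the level of the gene. Among 2439 genes with a mean of at least 100 CPM, 81 were higher and 3 lower, with a median log2 fold change of 0.18. Among 9150 genes between 5 and 100 CPM the counts were 121 and 45, with a median of 0.04. Among 6069 genes under 5 CPM they were 10 and 6, with a median of -0.37. Genes called higher had a median reference level of 49.1 CPM, and those called lower one of 23.7 CPM, beside 14.1 CPM for all genes tested.

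**Figure D1:**
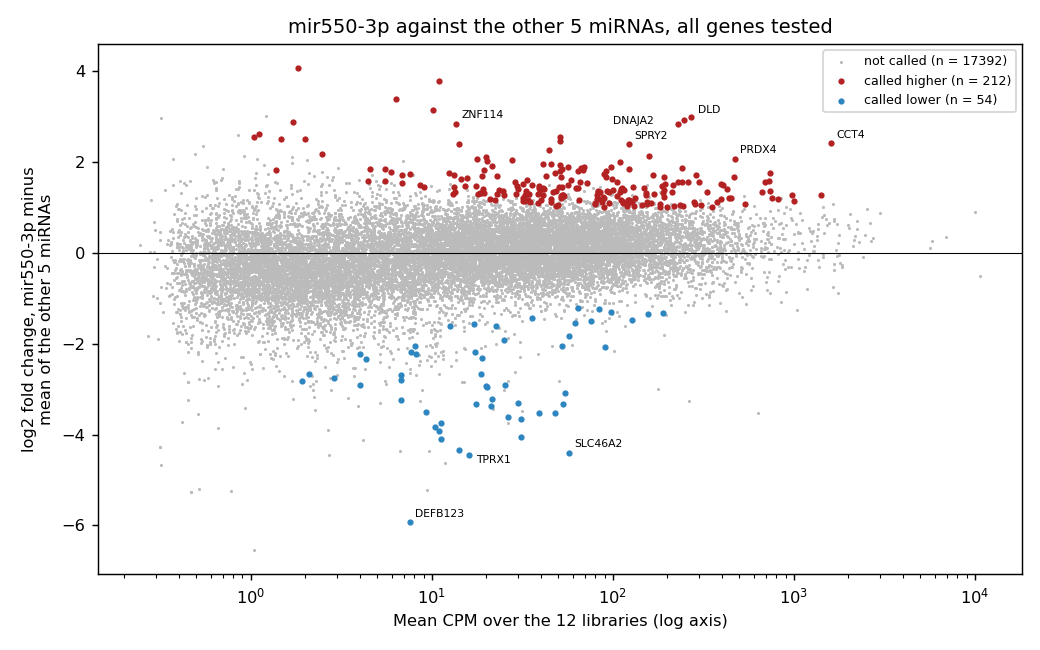
Log2 fold change of mir550-3p against the other 5 miRNAs (vertical axis) by mean CPM over the 12 libraries (horizontal log axis), 1 point per gene. The 212 genes called higher lie mostly above 5 CPM, 81 of them at 100 CPM or more, while only 3 of the 54 genes called lower are at that level.

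The calls rest on both mir550-3p libraries. Without mir550-3p replicate 1, 32 genes were called higher and 0 lower, and without replicate 2, 9 and 0, where the lone library is taken to spread as the other groups do. How far the drop in calls reflects the smaller number of libraries was not tested. DLD, MRPL14, DNAJA2, SMARCD2 and DNAJC8 were the 5 genes called with either library left out. Of the 49 called genes that are named by rule in the text, 13 were called without replicate 1 and 5 without replicate 2, and each of the 49 kept the sign of its change in both fits. That sign was largely fixed by the choice of genes. Most of them had both mir550-3p libraries outside the range of the reference libraries, so leaving out either library could hardly turn it. Reference libraries moved the counts of called genes too. Without mir1271-5p replicate 1, the library most like mir550-3p, 394 genes were higher and 222 lower. Without mir1180-3p replicate 2 there were 115 and 37, and without mir3613-5p replicate 2 there were 141 and 31. Leaving out mir1180-3p replicate 1 or mir1301-3p replicate 2 each reduced the lower genes to 31.

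**Figure D2:**
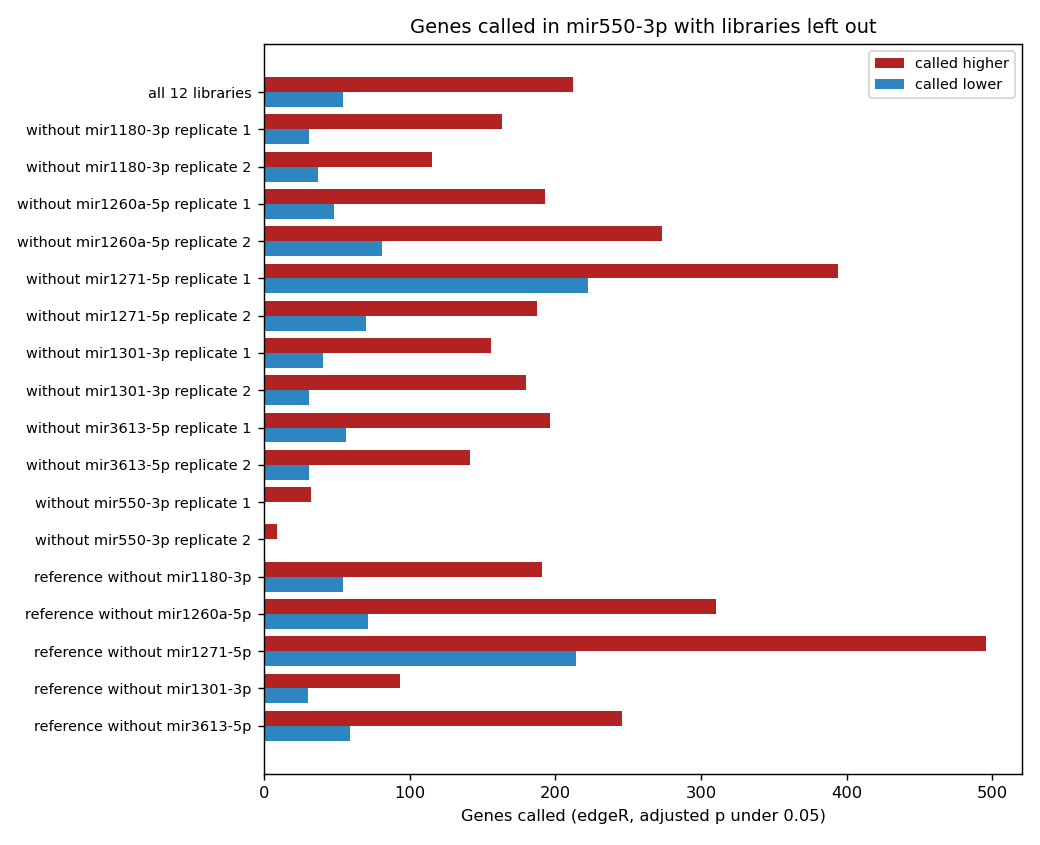
Number of genes called higher and lower (horizontal axis) in mir550-3p with all 12 libraries and with 1 library, or 1 reference miRNA, left out. The bars nearly vanish without either mir550-3p library (32 and 9 higher, 0 lower) and are long without mir1271-5p (496 higher, 214 lower).

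The largest increase under that rule was that of DLD. It encodes dihydrolipoamide dehydrogenase, the component shared by the pyruvate, 2-oxoglutarate and branched-chain ketoacid dehydrogenases and by the glycine cleavage system. DLD stood at 769 and 1185 CPM with mir550-3p, and the 10 reference libraries ran from 68.7 over a median of 112 to 254 CPM. Both values were above all 10, as that rule requires, the nearest being mir1271-5p replicate 1. The log2 fold change was 2.99 ± 0.27 (SE), a 7.95-fold difference, with an adjusted p of 1.84e-05 from edgeR. Of 13 genes of those complexes, looked up after DLD was seen, DLD and BCKDHB were called, beside 1.20% called higher over all genes. BCKDHB, a branched-chain subunit, stood at 77.5 and 64.4 CPM against 15.1 to 60.6 CPM (log2 fold change 1.15, adjusted p = 0.040 from edgeR). The pyruvate dehydrogenase genes PDHA1 and DLAT had log2 fold changes of 0.36 and -0.31, and DLST of the 2-oxoglutarate complex one near 0. The 13 genes had a median of 0.27.

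MRPL14, a protein of the large mitochondrial ribosomal subunit, stood at 911 and 828 CPM against a reference of 49.8, 125 and 201 CPM (lowest, median and highest). The groups did not overlap, which the naming rule requires, and the log2 fold change was 2.92 ± 0.28 (SE; edgeR adjusted p = 3.72e-05). DNAJA2 encodes a J-domain partner of the HSP70 chaperones. Its values were 773 and 832 CPM against 67.5, 114 and 176 CPM, with a log2 fold change of 2.84 ± 0.24 (edgeR adjusted p = 1.17e-05), the smallest adjusted p of the named genes. The 2 mir550-3p values of both genes lay close together.

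SMARCD2 encodes a subunit of the SWI/SNF chromatin remodeller. It was measured at 157 and 155 CPM against 8.94, 28.04 and 57.7 CPM, with a log2 fold change of 2.45 ± 0.30 (edgeR adjusted p = 0.00059). The nearest reference library was mir3613-5p replicate 2. Of its paralogs, SMARCD1 had a log2 fold change of -0.04 and SMARCD3 one of 0.37, and neither was called. SPRY2 encodes Sprouty 2, an inhibitor of RAS and MAP kinase signalling behind growth factor receptors. It stood at 287 and 469 CPM against 43.3, 66.4 and 121 CPM, with a log2 fold change of 2.39 ± 0.34 (edgeR adjusted p = 0.0018). Without mir550-3p replicate 2 its adjusted p was 0.17. The other 5 measured Sprouty and SPRED genes were not called and lay between -0.66 and 0.47 on the log2 scale.

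CCT4 encodes the delta subunit of the cytosolic chaperonin that folds actin and tubulin. It was the most abundant of the leading genes, at 3670 and 5810 CPM against 325, 647 and 1850 CPM, and its log2 fold change was 2.41 ± 0.33 (edgeR adjusted p = 0.0015). All 8 subunit genes of the chaperonin had positive log2 fold changes, with a median of 0.53, but CCT4 and CCT7 alone were called. The shares called higher were 1.20% over all genes and 3.32% over those of at least 100 CPM. CCT7 stood at 432 and 535 CPM against 61.3 to 274 CPM. TCP1 had 790 and 1145 CPM, inside a reference range of 414 to 3419 CPM. Without mir550-3p replicate 2, CCT4 had an adjusted p of 0.15. DNAJC8, a J-domain protein known from splicing complexes, stood at 469 and 388 CPM against 53.0, 96.1 and 181 CPM (log2 fold change 2.12 ± 0.23, edgeR adjusted p = 0.00014).

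PRDX4, the peroxiredoxin of the endoplasmic reticulum, stood at 1140 and 1342 CPM against 100, 315 and 531 CPM, with a log2 fold change of 2.07 ± 0.26. The other 5 peroxiredoxin genes were not called and ran from -0.53 for PRDX5 to 0.79 for PRDX6 on the log2 scale, and PRDX6 had both mir550-3p libraries above all 10 others. PPP4R2, a regulatory subunit of protein phosphatase 4, had 54.2 and 56.6 CPM against 6.35, 13.2 and 17.8 CPM, a log2 fold change of 2.12 ± 0.32. The catalytic gene PPP4C had a log2 fold change of 0.52 and was not called. MTFR2, listed under its older symbol FAM54A, encodes a mitochondrial fission regulator. It stood at 105 and 146 CPM against 10.5, 27.1 and 47.3 CPM, a log2 fold change of 2.26 ± 0.28. As the naming rule requires, the groups did not overlap in any of these 3 genes. Without mir550-3p replicate 2 their adjusted p-values were 0.078 for PRDX4, 0.14 for PPP4R2 and 0.078 for MTFR2, and PPP4R2 also missed the threshold without replicate 1, at 0.061.

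Of the remaining 4 leading genes, ZNF114, a zinc finger protein, had 27.5 and 62.8 CPM against 1.79, 6.26 and 14.5 CPM (log2 fold change 2.84 ± 0.34). TBXAS1, thromboxane A synthase, had 24.9 and 59.0 CPM against 4.22, 7.15 and 22.0 CPM (2.40 ± 0.39 on the log2 scale). Replicate 2 was the higher in both genes, and for TBXAS1 replicate 1 was just above mir1271-5p replicate 2. TOX2, an HMG-box transcription factor, had 58.0 and 83.8 CPM against 9.36, 15.5 and 38.3 CPM (2.04 ± 0.27). CCDC127 had 45.1 and 51.2 CPM against 4.27, 11.2 and 16.8 CPM (2.06 ± 0.32), with little spread between the mir550-3p libraries. Without mir550-3p replicate 2 the adjusted p-values of these 4 genes were 0.14, 0.40, 0.14 and 0.17, and CCDC127 had 0.061 without replicate 1.

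**Figure D3:**
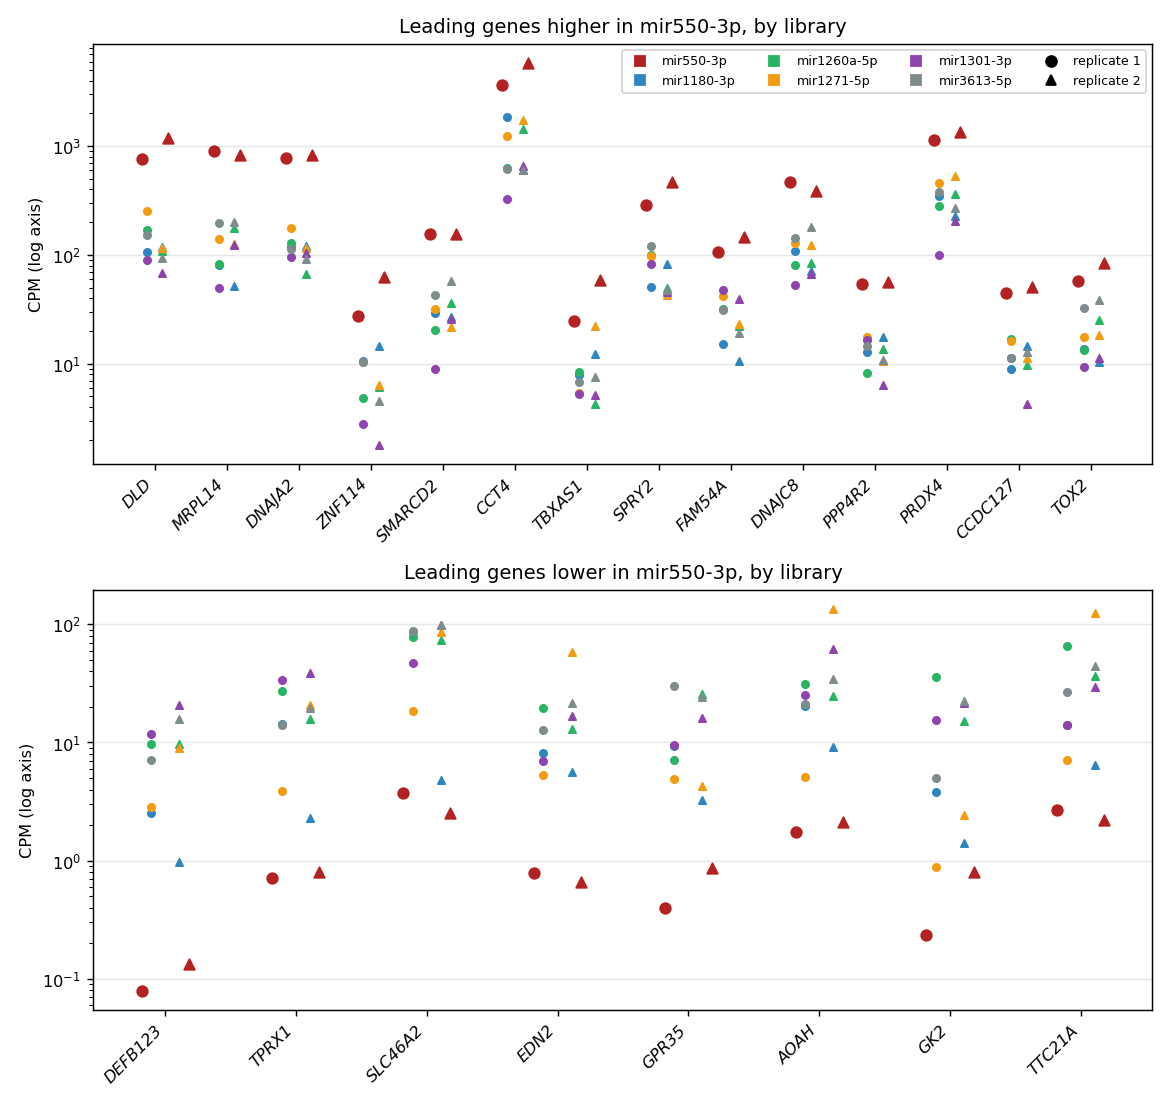
CPM (vertical log axes) of the 14 leading genes higher (top) and the 8 leading genes lower (bottom) in mir550-3p, with 1 point per library; colours mark the miRNA, circles replicate 1 and triangles replicate 2. Both red mir550-3p points lie above all 10 others for each gene at the top, such as DLD at 769 and 1185 CPM. They lie below all 10 for each gene at the bottom. The rule that chose these genes requires both.

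The leading decreases were in genes with pooled counts from 3 for DEFB123 to 85 for SLC46A2 over both mir550-3p libraries. All of them met the filter on mean CPM only through the reference libraries. DEFB123, a beta-defensin gene, had 1 and 2 counts, or 0.0789 and 0.133 CPM, against 0.978, 9.42 and 20.7 CPM in the reference. Its pooled counts gave a ratio of 89.6 between reference and mir550-3p, with a 95% exact interval from 30.6 to 435 that covers counting error only. The fitted log2 fold change was -5.92 ± 0.83 (edgeR adjusted p = 0.0017). The homeobox gene TPRX1 had 9 and 12 counts (0.710 and 0.797 CPM) against 2.28, 17.6 and 38.8 CPM. Its log2 fold change was -4.46 ± 0.79 (edgeR adjusted p = 0.0079). In both genes the reference libraries spread widely too, and the lowest was mir1180-3p replicate 2.

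EDN2, which encodes the vasoactive peptide endothelin 2, had 10 counts in each mir550-3p library, or 0.789 and 0.664 CPM, against 5.34, 12.9 and 57.8 CPM. GPR35, a G protein-coupled receptor, had 0.394 and 0.864 CPM against 3.26, 9.45 and 29.9 CPM. GK2, a testis form of glycerol kinase, had 0.237 and 0.797 CPM against 0.879, 10.2 and 35.7 CPM, so that its replicate 2 lay just under mir1271-5p replicate 1. The log2 fold changes were -4.34 ± 0.81, -4.09 ± 0.67 and -3.84 ± 0.77. The solute carrier gene SLC46A2 was the most abundant in the reference, with 4.78, 82.2 and 98.1 CPM against 3.71 and 2.52 CPM. Its log2 fold change was -4.40 ± 0.92, and the lowest reference library, mir1180-3p replicate 2, was itself close to the mir550-3p level.

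AOAH, an enzyme that detoxifies bacterial lipopolysaccharide, had 1.73 and 2.13 CPM against 5.07, 25.1 and 135 CPM. TTC21A, a tetratricopeptide gene linked to cilia, had 2.68 and 2.19 CPM against 6.41, 27.97 and 125 CPM. Their log2 fold changes were -4.05 ± 0.93 and -3.65 ± 0.84. For AOAH, TTC21A and EDN2 the highest reference library was mir1271-5p replicate 2. None of the 8 leading decreases was called when a mir550-3p library was left out, with adjusted p-values from 0.061 to 0.33 without replicate 1 and from 0.12 to 0.41 without replicate 2. Of these 8 genes, 5 were called with each reference library left out in turn. SLC46A2, AOAH and TTC21A each lost the call without either mir1260a-5p library, either mir1301-3p library or mir3613-5p replicate 2. AOAH and TTC21A lost it also without mir1180-3p replicate 1 or mir3613-5p replicate 1. Over the 54 genes called lower, the lowest reference library was mir1271-5p replicate 1 in 25 and mir1180-3p replicate 2 in 17.

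Of the 34 gene lists, 20 held at least 1 called gene. The lists were chosen with earlier results of these data known, so their counts and medians are a description. Medians are read against -0.05 over all genes tested, and counts of called genes against the shares over all genes. Those shares are 1.20% higher and 0.306% lower, and 3.32% and 0.123% among genes of at least 100 CPM. By level, the median was 0.18 at 100 CPM or more and -0.37 under 5 CPM. Upper-quartile scaling lowers the median of all genes by 0.12 and each list's median with it.

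**Figure D4:**
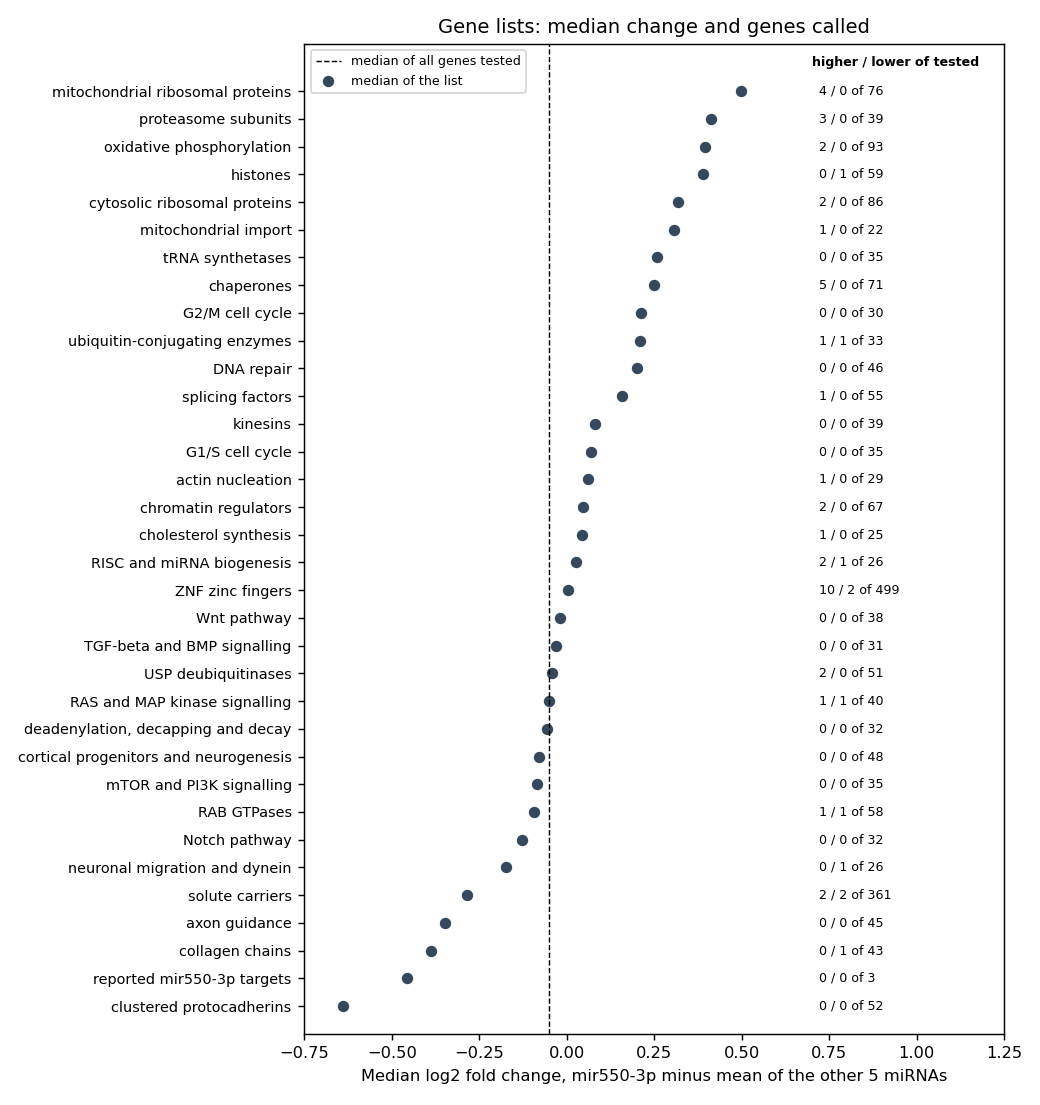
Median log2 fold change of mir550-3p against the other 5 miRNAs (horizontal axis) for 34 gene lists, with the number of genes called higher and lower of those tested at the right; the dashed line is the median of all genes tested, -0.05. Mitochondrial ribosomal proteins stand highest at 0.50 and clustered protocadherins lowest at -0.64.

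Mitochondrial ribosomal proteins had the highest median of the lists, 0.50. Of 76 genes, 4 were called higher and none lower, and 17 had both mir550-3p libraries above all 10 others. Over all genes tested 1.20% were called higher and 4.12% lay above all 10, and among genes of at least 100 CPM 3.32% and 10.3%. Besides MRPL14 these were MRPL16, MRPS22 and MRPL39. MRPL16 had 67.1 and 141 CPM against 18.2, 40.8 and 62.4 CPM, so that replicate 1 lay only just above mir1271-5p replicate 1 (log2 fold change 1.44 ± 0.30, edgeR adjusted p = 0.024). MRPS22, of the small subunit, had 91.4 and 103 CPM against 26.1 to 57.1 CPM. MRPL39 had 434 and 394 CPM against 125 to 321 CPM. Library by library, the median of its members stood at 0.59 and 0.42 relative to the reference, on a log2(CPM + 1) scale, against a highest reference library of 0.33 (mir3613-5p replicate 2). This was the single list of the 34 whose median lay above all 10 in both mir550-3p libraries. Genes with a mean of at least 100 CPM, which 36 of the 76 reached, stood at 0.26 and 0.16 on that scale.

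Oxidative phosphorylation genes had a median of 0.39, with 2 of 93 called higher and none lower, beside 1.20% and 0.306% over all genes. Of the list 64.5% reached 100 CPM, a level at which 3.32% of genes were called higher and the median was 0.18. The count called is thus near the background. NDUFB6, a subunit of complex I, had 419 and 328 CPM against 103, 147 and 224 CPM (log2 fold change 1.32 ± 0.26, edgeR adjusted p = 0.015). ATP5C1, now ATP5F1C, encodes the gamma subunit of ATP synthase and had 776 and 929 CPM against 183, 271 and 607 CPM (1.41 ± 0.30, adjusted p = 0.025). Neither gene's groups overlapped, as in 189 of the 212 genes called higher. Among all genes of at least 100 CPM, 10.3% lay above all 10 reference libraries. The list's median in the single libraries was 0.53 and 0.24, and replicate 2 lay under the 0.34 of mir3613-5p replicate 2. Among 22 genes of mitochondrial import, with a median of 0.31, TIMM8A was called, a small chaperone of the intermembrane space with 87.7 and 79.5 CPM against 32.9, 38.6 and 54.2 CPM (1.03 ± 0.25, adjusted p = 0.049). MRPL14 apart, none of the 6 called genes of these 3 lists was called without a mir550-3p library. Their adjusted p-values ran from 0.054 to 0.43 without replicate 1 and from 0.18 to 0.58 without replicate 2. With each reference library left out in turn, 2 of the 6 were called every time. TIMM8A, at the edge of the threshold, lost its call without any 1 of 8 reference libraries, and ATP5C1 without mir1180-3p replicate 2.

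**Figure D5:**
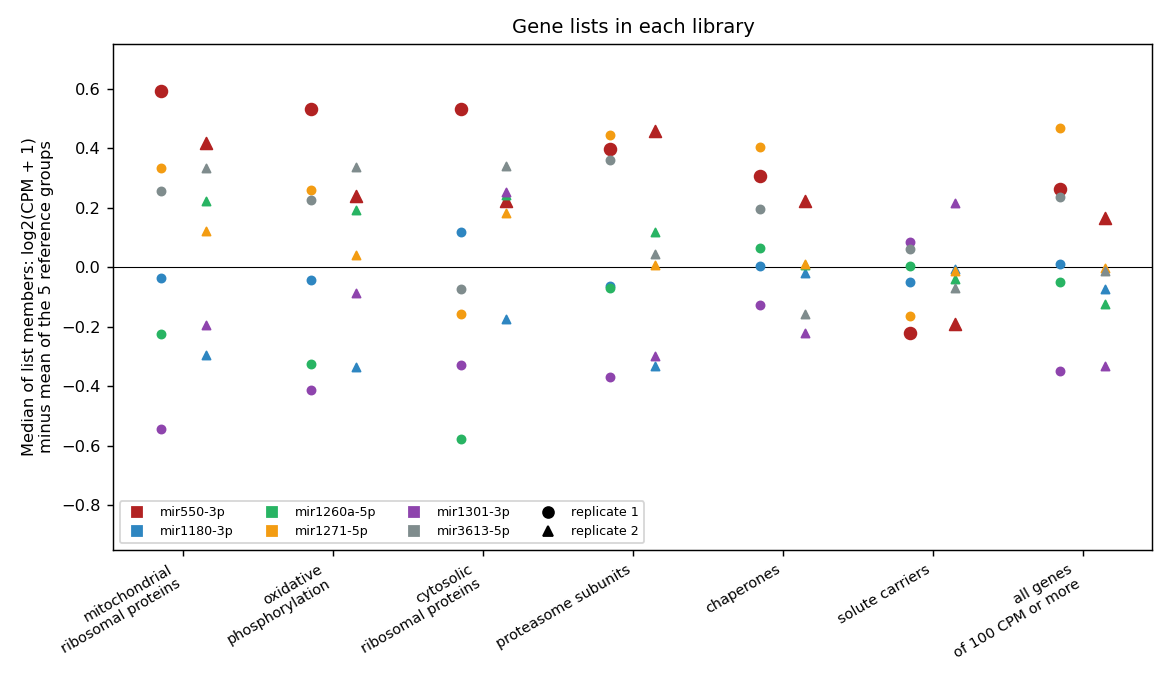
Median over list members of log2(CPM + 1) relative to the 5 reference groups' mean (vertical axis) for 6 gene lists and for all genes of at least 100 CPM, 1 point per library. Both red mir550-3p points lie above all others for mitochondrial ribosomal proteins (0.59 and 0.42) and below all others for solute carriers (-0.22 and -0.19), while mir1271-5p replicate 1 stands highest for abundant genes (0.47).

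Chaperones, 71 genes of the DNAJ, HSP70, HSP90 and CCT families, had 5 called higher and none lower, with a median of 0.25, where 1.20% and 0.306% of all genes were called. The fifth beside DNAJA2, DNAJC8, CCT4 and CCT7 was DNAJC19, a J-domain protein of the mitochondrial inner membrane with 150 and 155 CPM against 43.3 to 119 CPM (log2 fold change 1.19). All 5 were called with each reference library left out in turn. Without mir550-3p replicate 1, 3 of the 5 were called, and without replicate 2 there were 2, DNAJA2 and DNAJC8.

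Protein breakdown gave calls in 3 lists. Of 39 proteasome subunits 3 were higher and none lower, with a median of 0.41, where 1.20% of all genes and 3.32% of those of at least 100 CPM were called higher. PSMA5, of the catalytic core, had 608 and 705 CPM against 155, 290 and 353 CPM (log2 fold change 1.33 ± 0.23, edgeR adjusted p = 0.0065). PSMD14, the deubiquitinase of the regulatory lid, had 606 and 696 CPM against 129, 229 and 391.8 CPM (1.55 ± 0.30, adjusted p = 0.014). PSMA1, another core subunit, had 1462 and 1521 CPM against 400 to 1124 CPM (1.18). The groups did not overlap in any of the 3, as in 189 of the 212 genes called higher. Among all genes of at least 100 CPM, 10.3% lay above all 10 reference libraries. The median of the list was 0.40 and 0.46 in the mir550-3p libraries and 0.44 in mir1271-5p replicate 1.

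Among 33 ubiquitin-conjugating enzymes, UBE2Z rose and UBE2S fell, beside shares of 1.20% and 0.306% over all genes. Of the list 57.6% reached 100 CPM, a level at which 3.32% of genes were called higher and 0.123% lower. UBE2Z, which takes up ubiquitin from the activating enzyme UBA6, had 218 and 211 CPM against 50.7, 62.1 and 76.4 CPM, with tight values in both groups (log2 fold change 1.74 ± 0.23, edgeR adjusted p = 0.0010). UBE2S, which extends ubiquitin chains for the anaphase-promoting complex, had 8.83 and 5.51 CPM against 12.98, 24.8 and 59.9 CPM (-1.92 ± 0.41, adjusted p = 0.025). Among 51 USP deubiquitinases, USP33 and USP27X rose, beside the same 1.20% over all genes. USP33 had 321 and 471 CPM against 84.1, 122 and 246 CPM (1.48 ± 0.30), and USP27X had 36.4 and 38.2 CPM against 9.13, 12.2 and 22.8 CPM (1.47 ± 0.31). UBE2Z was called without mir550-3p replicate 1 (adjusted p = 0.039) and not without replicate 2 (0.0695). The other 6 named in these 3 lists were not called without either library, at adjusted p-values from 0.089 to 0.23 without replicate 1 and from 0.27 to 0.44 without replicate 2. USP27X lost its call without mir1180-3p replicate 2.

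In the RNA machinery itself, 3 of 26 genes of RISC and miRNA biogenesis were called, beside 1.20% higher and 0.306% lower over all genes. Of the list 50% reached a mean of 100 CPM, a level at which 3.32% of genes were called higher. DDX17 and DDX5, a pair of related RNA helicases that assist the nuclear Drosha complex, both rose. DDX17 had 1809 and 1223 CPM against 335, 487 and 880 CPM (log2 fold change 1.56 ± 0.26, edgeR adjusted p = 0.0053), and DDX5 had 1081 and 664 CPM against 178 to 524 CPM (1.49 ± 0.33, adjusted p = 0.031). DGCR8, the RNA-binding partner of Drosha, fell, at 34.6 and 24.9 CPM against 50.9, 91.3 and 104 CPM (-1.50 ± 0.33, adjusted p = 0.027). The groups did not overlap for these 3 genes, which is common among called genes (189 of the 212 higher and 47 of the 54 lower). Over all genes tested, 4.12% lay above all 10 reference libraries and 2.95% below. None was called without either mir550-3p library, with adjusted p-values from 0.19 to 0.52 without replicate 1 and from 0.078 to 0.44 without replicate 2. DGCR8 also lost its call without mir1180-3p replicate 2, and with each reference library left out in turn 1 of the 3 was called every time.

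TNRC6A, the gene of the trapping protein, was among the most abundant transcripts, at 16600 and 15920 CPM with mir550-3p against 6310, 9291 and 11460 CPM. Both values lay above all 10, and the log2 fold change of 0.90 ± 0.24 missed the threshold (edgeR adjusted p = 0.066). The sources used here do not say whether these counts include an introduced construct. The higher TNRC6A level goes with every gene called, and its part in the results was not tested. TNRC6B and TNRC6C had log2 fold changes of -0.65 and -0.63. The Argonaute genes AGO1, AGO2, AGO3 and AGO4, listed as EIF2C1 to EIF2C4, had -0.35, 0.02, 0.07 and 0.10, with adjusted p-values from 0.61 to 0.99. AGO2 had 55.4 and 25.8 CPM against 26.2, 39.2 and 59.6 CPM, and its groups overlapped.

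CPEB4 and MAPK3, reported as targets of mir550-3p in other studies, were not called. CPEB4, a regulator of poly(A) tails, had 47.0 and 38.5 CPM against 36.6, 55.9 and 98.8 CPM (log2 fold change -0.54 ± 0.36, edgeR adjusted p = 0.47). MAPK3, a MAP kinase, had 37.9 and 37.4 CPM against 19.7, 53.0 and 89.4 CPM (-0.46 ± 0.37, adjusted p = 0.57). All 4 mir550-3p values lay inside the reference range. These are differences from 5 other miRNAs and do not show whether the transcripts were held on RISC at all. Among 40 genes of RAS and MAP kinase signalling, SPRY2 was the single increase and MAP2K7, a kinase upstream of JNK, the single decrease. The shares over all genes were 1.20% and 0.306%. MAP2K7 had 14.98 and 13.3 CPM against 19.96, 37.6 and 66.6 CPM (-1.44 ± 0.33, edgeR adjusted p = 0.040).

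The chromatin list, with 67 genes and a median of 0.05, had SMARCD2 and RING1 called higher. Beside this and the next lists, 1.20% of all genes were called higher. Among genes of at least 100 CPM, a level that 58.6% of the actin nucleation list reached, the share was 3.32%. RING1, a ubiquitin ligase of Polycomb repressive complex 1, had 37.0 and 53.2 CPM against 5.00, 16.1 and 32.5 CPM (log2 fold change 1.82 ± 0.35, edgeR adjusted p = 0.014). DIAPH2, a formin that extends actin filaments, was the 1 called of 29 genes of actin nucleation, at 31.6 and 38.3 CPM against 8.59, 14.01 and 22.4 CPM (1.30 ± 0.30, adjusted p = 0.037). HSD17B7, an enzyme of cholesterol synthesis, was the 1 called of 25 genes, at 8.20 and 18.6 CPM against 1.29, 4.23 and 9.26 CPM (1.77 ± 0.40, adjusted p = 0.032). Its replicate 1 lay inside the reference range. RING1, MAP2K7, DIAPH2 and HSD17B7 were not called without either mir550-3p library, at adjusted p-values from 0.070 to 0.30 without replicate 1 and from 0.39 to 0.58 without replicate 2. RING1 was called with each reference library left out in turn; the other 3 lost the call without replicate 2 of mir1180-3p, mir1301-3p or mir3613-5p, MAP2K7 also without mir1180-3p replicate 1, and DIAPH2 also without mir1271-5p replicate 2 or mir1301-3p replicate 1.

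Zinc finger genes named ZNF, most of them DNA-binding repressors, numbered 499 with a median of 0.00, and 10 were higher and 2 lower, near the shares of 1.20% and 0.306% over all genes. ZNF273 had 136 and 124 CPM against 26.1, 41.2 and 72.9 CPM (log2 fold change 1.61 ± 0.26, edgeR adjusted p = 0.0049). After ZNF114 and ZNF273, the other 8 increases were ZNF410, ZNF382, ZNF616, ZNF232, ZNF211, ZNF165, ZNF195 and ZNF92, from 1.02 for ZNF92 to 1.91 for ZNF382. ZNF410, a regulator known to act on the chromatin gene CHD4, had 288 and 306 CPM against 43.9 to 232 CPM. The decreases were ZNF227, at 16.8 and 26.2 CPM against 26.0 to 199 CPM with replicate 2 inside that range, and ZNF418, at 1.42 and 2.46 CPM against 4.87 to 64.6 CPM. ZNF genes share repeated sequence, so reads of close relatives may be split between them. Of the 11 besides ZNF114, 1 was called without mir550-3p replicate 1, none without replicate 2 (adjusted p-values from 0.14 to 0.61), and 3 with each reference library left out in turn.

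Of 86 cytosolic ribosomal protein genes, 2 were higher and none lower, with a median of 0.32, and 12 had both mir550-3p libraries above all 10 others. Of the list 88.4% reached 100 CPM, a level at which 3.32% of all genes were called higher and 10.3% lay above all 10, so these counts are near the background. Those called were the ribosomal paralogs RPL22L1 and RPL3L. RPL22L1 had 719 and 491 CPM against 240, 298 and 430 CPM (log2 fold change 1.005 ± 0.24, edgeR adjusted p = 0.042). RPL3L, a form known from muscle, was scarce at 2.37 and 3.85 CPM against 0.338, 0.869 and 2.18 CPM (1.83 ± 0.41, adjusted p = 0.031). The list's median was 0.53 in mir550-3p replicate 1 and 0.22 in replicate 2, inside the reference range that reached 0.34. Of 55 splicing factors SF3B2, of the U2 snRNP, was called, at 105 and 155 CPM against 29.0, 46.5 and 91.7 CPM (1.43 ± 0.29, adjusted p = 0.017). These 3 were not called without either mir550-3p library, at adjusted p-values from 0.094 to 0.60 without replicate 1 and from 0.23 to 0.48 without replicate 2. RPL22L1 and RPL3L lost the call without mir1180-3p replicate 1 or 2, mir1260a-5p replicate 1 or mir1301-3p replicate 1 or 2, RPL22L1 also without either mir3613-5p library, and SF3B2 was called without each of the 10.

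Among 361 solute carriers, SLC35E3 and SLC9B1 rose and SLC39A5 and SLC46A2 fell, and the median was -0.28. These counts are near or under the shares of 1.20% and 0.306% over all genes. SLC35E3 had 91.7 and 144 CPM against 15.7, 29.0 and 55.8 CPM (log2 fold change 1.95 ± 0.37, edgeR adjusted p = 0.013). SLC39A5, a zinc transporter, had 5.60 and 2.86 CPM against 7.83, 21.1 and 31.8 CPM (-2.19 ± 0.47, adjusted p = 0.025). In single libraries the median of the list was -0.22 and -0.19, under the lowest reference library at -0.17 (mir1271-5p replicate 1), and it was the single list below all 10 in both. Of these genes 7.76% reached a mean of 100 CPM, against 13.8% of all genes tested. All genes with a mean under 5 CPM stood at -0.30 and -0.19 in the mir550-3p libraries, with the lowest reference library at -0.43. Among 58 RAB GTPases, RAB9A rose and RAB37 fell, beside shares of 1.20% and 0.306% over all genes. RAB9A, which serves the return of receptors from late endosomes to the Golgi, had 164 and 237 CPM against 41.4, 87.4 and 127 CPM (1.26 ± 0.27, edgeR adjusted p = 0.024). RAB37 had 2.84 and 2.06 CPM against 1.69, 18.7 and 73.9 CPM (-2.90 ± 0.70, adjusted p = 0.046), and mir1271-5p replicate 1 lay under both of its values.

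DCTN5, a subunit of dynactin, the dynein adaptor, was the 1 called of 26 genes of neuronal migration and dynein. The share called lower over all genes was 0.306%. It had 30.6 and 26.0 CPM against 40.9, 57.4 and 137 CPM (log2 fold change -1.22 ± 0.29, edgeR adjusted p = 0.045). H3F3A, now H3-3A, which encodes the histone variant H3.3, had 62.7 and 64.4 CPM against 87.4, 151 and 367 CPM (-1.35 ± 0.31, adjusted p = 0.040), while the 59 histone genes had a median of 0.39. Of 43 collagen chains COL13A1 fell, with 1.66 and 1.86 CPM against 3.48, 6.76 and 22.3 CPM (-2.22 ± 0.53, adjusted p = 0.043), and the list's median was -0.39. H3-3A and COL13A1 had adjusted p-values of 0.37 and 0.37 without mir550-3p replicate 1 and of 0.42 and 0.41 without replicate 2, and both lost the call without mir1180-3p replicate 1 or 2, mir1301-3p replicate 2 or mir3613-5p replicate 2, and COL13A1 also without mir1271-5p replicate 2. The transport genes RAB9A, RAB37, SLC35E3, SLC9B1 and SLC39A5 and DCTN5 were likewise not called without either mir550-3p library, at adjusted p-values from 0.070 to 0.33 and from 0.39 to 0.47. RAB9A lost the call without replicate 2 of mir1180-3p or mir3613-5p, and RAB37 and DCTN5 without most single reference libraries.

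In the other 14 lists no gene was called. The series concerns miRNAs of the germinal zones of the developing brain, and 4 of the lists on brain development were among them: cortical progenitors and neurogenesis (48 genes, median -0.08), the Notch pathway (32 genes, -0.13), the Wnt pathway (38 genes, -0.02) and axon guidance (45 genes, -0.35). Neuronal migration and dynein, with DCTN5 called, was another such list. With 1.20% and 0.306% of all genes called, lists of this size may hold no call. Clustered protocadherins, cell-surface genes of neurons, had the lowest median of all, -0.64 over 52 genes, none of which reached a mean of 100 CPM. Their median in the single mir550-3p libraries was -0.45 and -0.31, while the reference ran from -0.58 in mir1271-5p replicate 1 to 0.93 in mir1301-3p replicate 2. The G1/S and G2/M cell-cycle lists had medians of 0.07 and 0.21, DNA repair 0.20 and tRNA synthetases 0.26. The decay factors that act after GW182, such as the CCR4-NOT and decapping genes, had a median of -0.06 over 32 genes.

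Markers of other cells were low and none of the 43 marker genes tested was called. The 7 blood markers tested summed to 14.5 and 12.02 CPM with mir550-3p against 17.3 to 34.6 CPM in the reference. The 10 fibroblast and mesenchyme markers summed to 32.3 and 36.1 CPM, near the reference median of 29.6 CPM, and the highest library was mir1301-3p replicate 2 at 187 CPM. The 10 neuron and glia markers summed to 55.2 and 76.9 CPM against 46.9 to 76.8 CPM. Liver and keratinocyte markers, 7 genes, summed to 5.60 and 8.84 CPM against 6.22 to 30.3 CPM. Another 3 blood markers and 1 keratinocyte marker did not pass the filter on low counts. The part of these differences in the results was not tested.

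The descriptions of 8 reference libraries carry sample numbers, while those of mir550-3p and mir1301-3p carry the name of the miRNA. The sources used here do not say whether that difference in naming marks separate preparations. Against mir1301-3p alone, 847 genes were higher (4.80%) and 860 lower (4.87%), and these held 190 of the 212 and 49 of the 54 genes called against all 5. All 14 leading increases and all 8 leading decreases were called in the same direction. The naming rule had placed them outside both mir1301-3p libraries, so their direction was fixed beforehand. Both comparisons use the same mir550-3p libraries, and mir1301-3p is part of the reference, so the shared calls are not independent. RPL3L, DIAPH2, MAP2K7 and DCTN5 were the 4 named genes not called against mir1301-3p alone, with the same sign. With mir1301-3p left out of the reference, 93 genes were higher and 30 lower.

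The reference library that came closest to mir550-3p in the genes called higher was most often mir1271-5p replicate 1, in 82 of 212 and in 16 of the 33 named by rule. The 212 genes summed to 62810 and 65310 CPM with mir550-3p, to 32180 CPM in mir1271-5p replicate 1 and to 16320 CPM in mir1301-3p replicate 1, the lowest. The 54 genes called lower summed to 494 and 485 CPM against 1659 to 2707 CPM. Since the genes were chosen for that difference, the sums describe it and test nothing.

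A few calls rested on 1 mir550-3p library. In 7 called genes, chosen after their values were seen, the 2 libraries differed by more than 4-fold, and 6 of them were higher. SYTL3, a synaptotagmin-like gene, had 1.58 and 74.5 CPM, and FAHD2A had 3.47 and 90.6 CPM, against 2.004 to 10.8 CPM and 0.832 to 6.63 CPM in the reference. Replicate 1 of SYTL3 lay under that range and replicate 1 of FAHD2A inside it. C7orf45 had the reverse, 14.8 CPM in replicate 1 and 0.864 CPM in replicate 2 against 0.0771 to 2.38 CPM, and its fitted log2 fold change of 4.06 was the largest of all called genes. CLEC3A, C9orf172 and the lower gene MOGAT2 were also among them.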

How the data were processed

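The authors deposited 1 table of read counts per gene, with 19077 entries and a column for each library, and the counts were used as deposited. Alignment with TopHat2 to hg19 is given per the submitters' processing notes. For the counting tool and its strand setting the sources used here give nothing. Of the entries, 18560 matched a RefSeq record (GRCh38.p14) by accession, used for current names only.

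From these counts, 12 libraries of 6 miRNAs were fitted in edgeR 4.0.16 (R 4.3.3) after filterByExpr, with TMM scaling and the robust quasi-likelihood F test. The contrast was mir550-3p minus the mean of the other 5 groups, and p-values were adjusted over the 17658 genes tested by Benjamini-Hochberg. The SE of a log2 fold change was that change divided by the square root of F. Scripts were tested on simulated data. Alternatives were RLE and upper-quartile scaling, no filter, a filter at a mean of 5 CPM, DESeq2 1.42.0, a replicate block, and each library or reference miRNA left out. A count of 3, the upper limit that a count of 0 allows, equals 0.207 and 0.187 CPM in the mir550-3p libraries. Precision here covers counting error and the spread between libraries of the same miRNA, estimated over the 6 groups of 2 libraries together.

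Genes were named by rule: the 14 largest increases and the 8 largest decreases among called genes with a mean of at least 5 CPM and both mir550-3p libraries outside the range of the other 10, up to 2 called genes of each list by adjusted p, the reported targets, TNRC6A and the Argonaute genes. The other called list members, and the partners of leading genes, were named after their values were seen. Members and lists were chosen with earlier results of these data known. The list of reported targets was written from memory of other studies. A few genes are not reported here.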

Additional observations from a re-analysis of the deposited data

Results flagged for a closer look

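One library of mir124-3p, whose label names the SOLiD platform, was in no comparison. There, 4 of the 14 leading genes were above all 10 reference libraries, on CPM scaled over these 13 libraries. SMARCD2 stood at 161.6 CPM, with 58.2 CPM in the highest reference library and 154.5 CPM in the lower mir550-3p library. DNAJC8 stood at 289.6 CPM, between 182 and 387 CPM. CCDC127 stood at 35.2 CPM, between 16.9 and 45.6 CPM. SPRY2 stood at 127.6 CPM, just above the highest reference value of 122.2 CPM and under the 289.6 CPM of mir550-3p. The difference from the reference was not tested for this single library.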

How the results depend on the processing

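Against 212 genes higher and 54 lower, upper-quartile scaling gave 137 higher, and DESeq2 gave 542 and 338, with 3424 genes given no adjusted p. A reference without mir1271-5p gave 496 and 214, one without mir1301-3p 93 and 30, and mir1301-3p alone 847 and 860. Adding the SOLiD library of mir124-3p gave 35 lower. Leaving out 1 library gave from 9 to 394 higher and from 0 to 222 lower. The cause was not tested. Genes with both mir550-3p libraries above all others, compared in ways chosen after seeing the data, numbered from 747 to 1767 with 1 library left out and 1271 without mir1271-5p. Those below all others numbered from 558 to 1601, and 938 without mir1271-5p. Leaving a library out drops a condition, so both counts can only stay or rise from 728 and 521. Such a rise is no sign of dependence on the processing. No call of a named gene turned its direction in any of these settings. These genes were chosen as called, and most had both mir550-3p libraries outside the range of the reference libraries. Their direction was therefore largely fixed by the choice, and its constancy is no separate sign of stability. Of the 49 named genes called, 49 were called with RLE scaling, 40 with upper-quartile scaling, 48 with DESeq2 and 34 without mir1301-3p in the reference.

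The fit with the replicate block called 251 higher and 62 lower, sharing 206 and 50 with the main counts. The deviations from their own group's mean, across genes, did not go together in same-numbered libraries of mir550-3p and the other miRNAs (r from -0.08 to 0.07). These values show no shared pattern by number. They cannot tell whether same-numbered samples were prepared together, which the labels do not say. Depth limits DEFB123, which rests on 3 counts over both mir550-3p libraries.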

Other observations

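The 8 leading decreases were looked up in the SOLiD library of mir124-3p, which has no replicate. Scaled over these 13 libraries, DEFB123 stood there at 0.0774 CPM, TPRX1 at 0.464 CPM and GK2 at 0.387 CPM. Their lowest reference libraries, scaled over the 12, had 0.978, 2.28 and 0.879 CPM. SLC46A2 stood at 2.55 CPM, beside 2.52 CPM in the lower mir550-3p library and 4.78 CPM in the lowest reference library. EDN2 stood at 2.17, GPR35 at 1.32 and AOAH at 2.79 CPM, above the lower mir550-3p values of 0.664, 0.398 and 1.75 CPM. The lowest reference values of EDN2, GPR35 and AOAH were 5.34, 3.26 and 5.07 CPM. TTC21A stood at 7.43 CPM, with 2.19 CPM in the lower mir550-3p library and 6.41 CPM in the lowest reference library. All but TTC21A were thus under the reference in this library too. DLD, MRPL14 and CCT4, in contrast, were at 191.5, 97.8 and 594.5 CPM, under the highest reference library. These values were not tested.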
